A study of Mus musculus with 16 samples.

Results

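Expression of 9 genes that mark the making of cortical neurons was followed through sorted green cells of the mouse neocortex at postnatal day 4. They were the proneural factors Neurog1 and Neurog2, the progenitor factors Eomes and Insm1, the differentiation factors Neurod1, Neurod2 and Neurod6, and the young neuron cytoskeletal genes Dcx and Tubb3. The genes were taken by their symbols, by a rule that uses no measured value, although earlier results of these data were known, and are 9 of 53379 genes in the count tables. Of 16 RNA-seq libraries, 15 had a group in the labels: Eed+/+ astrocytes (n = 5), Eed−/− astrocytes (n = 5), Eed+/+ neurons (n = 2) and Eed−/− neurons (n = 3).

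All groups came from mice with MADM cassettes on chromosome 7 (MADM7-GT/TG), Emx1-cre and the XGFAP-lacZ transgene, of the strain given as CD1 and described by the study as a mixed C57BL/6 and CD1 background with both sexes. Mosaic analysis with double markers (MADM) recombines homologous chromosomes so that rare dividing cells give rise to green daughters of known genotype. Green cells were Eed+/+ in control-MADM mice and Eed−/− in Eed-MADM mice, where most surrounding cells stayed Eed+/−. EED belongs to the core of PRC2, the Polycomb complex that silences genes by methylating histone H3. Emx1-cre acts in progenitors of the dorsal telencephalon, and lacZ is driven by the human GFAP promoter. Astrocytes were sorted as GFP+/lacZ+ and neurons as GFP+/lacZ−, so the neuron gate rests on absence of lacZ and can also hold other GFP+ cells without it. Individual animals were the replicates, and no label says that astrocyte and neuron libraries with the same number share an animal.

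Cortical projection neurons arise from radial glial progenitors, either directly or through intermediate progenitors. Proneural bHLH proteins such as NEUROG2 start this step, the T-box factor EOMES (TBR2) marks intermediate progenitors, and NEUROD family factors act as the daughter cells become neurons. DCX and TUBB3 then serve the microtubules of the migrating and growing neuron. Dorsal neurogenesis is largely over at birth, when progenitors turn to glia, and NEUROD2 and NEUROD6 persist in young excitatory neurons.

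The upstream sequences of Neurod2, Neurod6 and Eomes are shown because the first 2 of these genes varied together across libraries and Eomes had the smallest p of the set between the sorted populations over both genotypes and in control-MADM mice, though not in Eed-MADM mice. They are the 250 bases before the RefSeq start of each gene (GRCm38.p6), in the direction of the gene, with every CANNTG in capitals, the letters of the E-box that bHLH factors can bind.
Neurod2 (chr11:98329646-98329895, minus strand): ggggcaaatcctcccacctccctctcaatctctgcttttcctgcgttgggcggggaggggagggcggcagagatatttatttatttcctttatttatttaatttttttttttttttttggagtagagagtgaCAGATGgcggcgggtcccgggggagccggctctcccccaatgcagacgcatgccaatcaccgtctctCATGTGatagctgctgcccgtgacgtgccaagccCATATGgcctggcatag
Neurod6 (chr6:55681264-55681513, minus strand): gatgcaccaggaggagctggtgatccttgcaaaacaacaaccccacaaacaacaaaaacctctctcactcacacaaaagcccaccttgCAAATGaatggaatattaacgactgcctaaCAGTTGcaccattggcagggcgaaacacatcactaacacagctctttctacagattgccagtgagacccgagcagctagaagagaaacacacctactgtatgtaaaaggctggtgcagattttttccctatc
Eomes (chr9:118477939-118478188, plus strand): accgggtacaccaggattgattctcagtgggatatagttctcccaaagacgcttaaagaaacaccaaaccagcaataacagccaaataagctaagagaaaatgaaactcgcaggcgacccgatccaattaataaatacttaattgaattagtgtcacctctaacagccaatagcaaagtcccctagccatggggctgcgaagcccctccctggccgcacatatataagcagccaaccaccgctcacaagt
The Neurod2 window held 3 CANNTG, 1 of them CAGATG, a form associated with NEUROD and NEUROG proteins. The Neurod6 window held 2 and the Eomes window 0. RefSeq gave windows for 8 of the 9 genes, 9 windows in all because Dcx had 2 starts. CANNTG (palindromic, so both strands are covered) was in 3 of these 9 windows, the third being Neurod1 with 1, against 66.2% of 32841 promoter windows of the same length. CAGATG on either strand was in 1 of 9 against 14.4%, CAGCTG in 0 of 9 against 13.0%, and TATAAA on either strand in 2 of 9, both of Dcx, against 12.4%. The 2 Dcx windows overlap and hold the same TATAAA, so this is 1 site counted in both. CAGATG and CAGCTG are forms of CANNTG and were counted under it as well. A match is a description of letters and not a bound site.

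The libraries differed widely in depth. The 15 labelled libraries held 211736 to 3178529 gene reads. Uniquely aligned reads made up 26.1% to 76.6% of uniquely aligned and unmapped reads together, with the total of multiply aligned reads left out. Only 10 of the 15 had both at least 1000000 uniquely aligned reads and at least 60% unique alignment. The 5 others were Eed−/− astrocytes 1, 3 and 4, the library labelled Eed+/+ astrocyte 3 and Eed+/+ neuron 2. A count of 0 allowed up to 1.13 to 9.64 TMM-scaled CPM (counts per 1000000 gene reads after TMM scaling, at 3 counts) in the libraries where a gene of the set had no reads, a limit that covers counting error only. Library numbers fell into 2 consecutive runs, the first with all 5 neuron libraries and 5 astrocyte libraries (Eed+/+ 1 and 2, Eed−/− 1 to 3), the second with 5 astrocyte libraries (Eed+/+ 3 to 5, Eed−/− 4 and 5). The labels do not say what the runs stand for.

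The labelled cell types were checked against marker genes. The 15 astrocyte markers summed to 5412 to 71972 CPM in astrocyte libraries and to 12437 to 25723 in neuron libraries, so they were present in every library of the neuron gate. The library labelled Eed+/+ astrocyte 3 (9198 CPM) and Eed−/− astrocytes 1 and 4 (5412 and 9799 CPM) lay below every neuron library, against their label. Slc1a3, an astrocyte glutamate transporter, lay between 2139 and 3254 CPM there, against 805 to 8959 in astrocyte libraries. The 15 neuron markers summed to 1426 to 4438 CPM in neuron and 381 to 1963 in astrocyte libraries. Of the defining neuron markers, Map2 and Snap25 were present in all 5 neuron libraries, Syt1 was at 0 in 2 of them, both Eed+/+, and Rbfox3 was at 0 in 1. Snap25, at 6.37 to 168 CPM, overlapped the astrocyte libraries (0 to 113). Of the same list, Npm1 at 318.36 to 471.65 CPM and Lrrn3 at 50.63 to 75.09 lay above all 10 astrocyte libraries (0 to 235.4 and 0 to 45.38), and both were named after their values were seen. The study used both as neuron markers in its own purity check, with Aqp4 and Gfap for astrocytes. Aqp4 had a median of 1194 CPM in astrocyte and 707 in neuron libraries, and Gfap of 303 and 307. The ranges of these 2 overlapped between the gates. Astrocytes and neurons below mean the labelled gates. In these bulk libraries fewer cells of a type and less RNA per cell cannot be told apart. The targeted gene Eed lay at 65.4 and 82.8 CPM in Eed+/+ neurons and at 16.5, 38.2 and 33.7 in Eed−/− neurons. In Eed+/+ astrocytes it was at 3.77 to 76.5 CPM and in Eed−/− astrocytes at 0 to 17.4. The lowest of the Eed+/+ libraries, replicate 3, had 2 Eed reads and lay below Eed−/− astrocytes 2 and 5, so its targeted gene goes against its label, on a count under the limit of 3. Counts were summed over all exons of the gene, deleted or not.

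**Figure D1:**
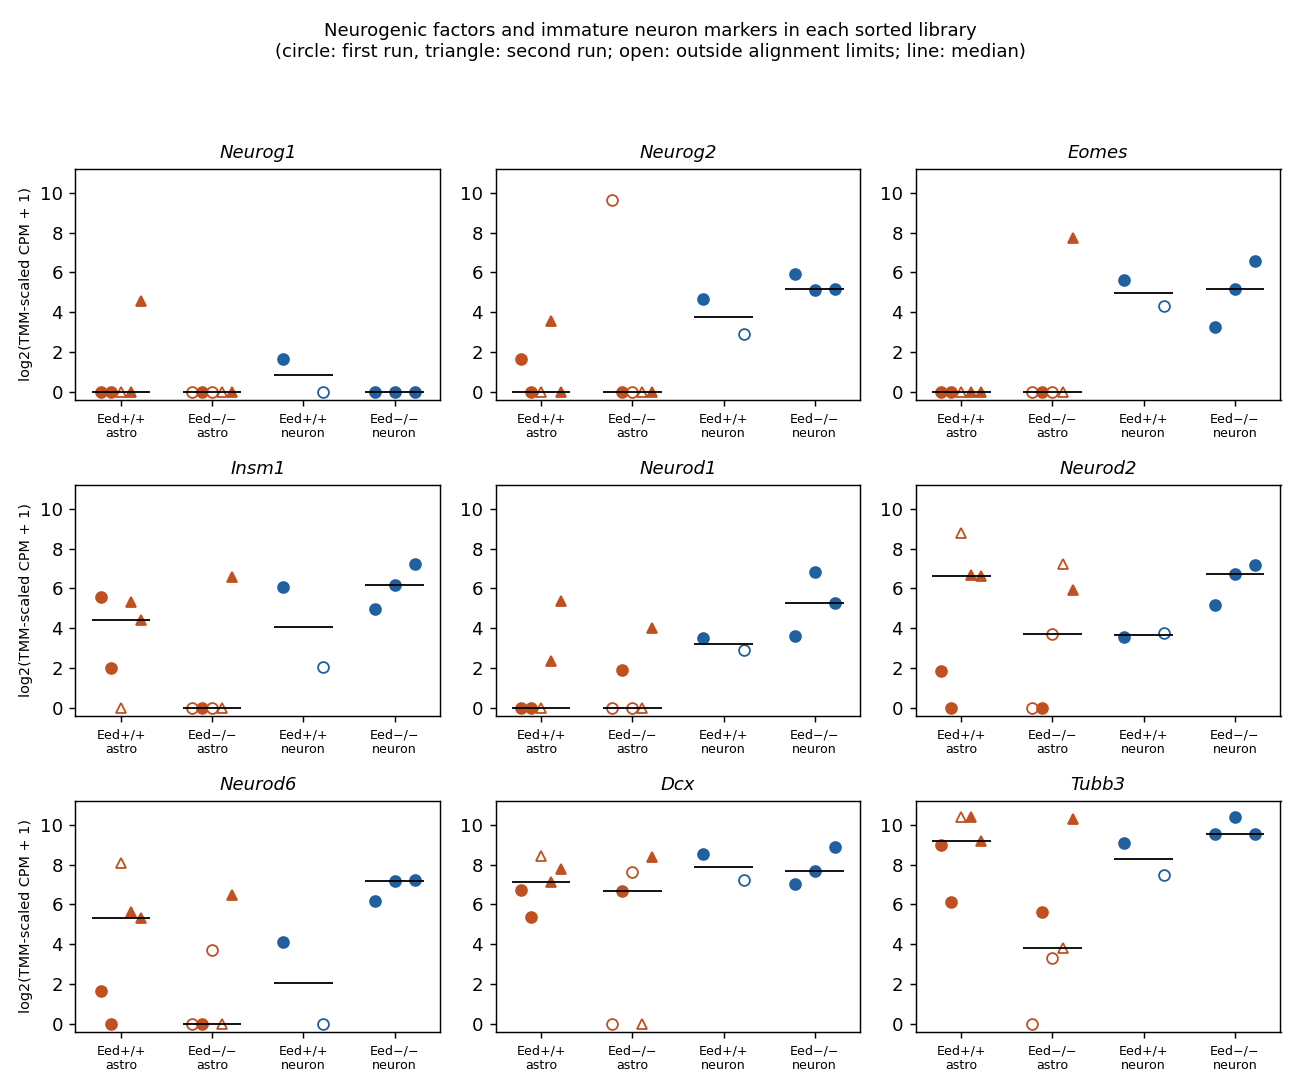
TMM-scaled CPM, as log2(CPM + 1), of the 9 genes in each of the 15 libraries by gate and Eed genotype; each point is 1 library, lines are group medians, circles and triangles are the first and second run of library numbers, and open points lie outside the alignment limits. Eomes had reads in all 5 neuron libraries and in 1 of 10 astrocyte libraries, whereas Neurod2 and Neurod6 overlapped between the gates and reached their highest values, 446 and 269 CPM, in an astrocyte library of the second run.

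Eomes (ENSMUSG00000032446.14; chromosome 9, 118478212 to 118486132, plus strand) had reads in every neuron library and in 1 of 10 astrocyte libraries. In neurons it lay at 48.1 and 19.1 CPM in Eed+/+ and at 8.67, 34.6 and 92.7 CPM in Eed−/− libraries. No Eed+/+ astrocyte library had a read, and in Eed−/− astrocytes replicates 1 to 4 had none while replicate 5 had 204 reads, 208 CPM. That library was above all 5 neuron libraries, and otherwise the gates did not overlap. An annotated antisense gene, Gm33460, overlaps its exons, and unstranded counting sets reads of the shared part aside as ambiguous, for neither gene.

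In control-MADM mice, neuron libraries held 95 Eomes reads and astrocyte libraries 0. Over the group this was 44.6 CPM against a limit of 0.307 CPM for 3 counts, at least 145-fold higher. Of these reads 89 came from Eed+/+ neuron 1. Without it the bound was 62.3-fold, but there the neuron reads were TMM-scaled and the limit was not, so the 2 bounds differ in scale. The fitted log2 difference was 8.45 ± 2.06 (SE), with an adjusted p of 0.142 in edgeR's quasi-likelihood test, so it did not pass 0.05 although it ranked at place 4 of 13367 genes. The adjusted p was 0.0307 with another scaling (RLE), 1.36e-06 with DESeq2 and 0.0283 without Eed−/− astrocyte 1, which enters the spread but not the contrast. DESeq2 put the log2 difference at 23.6 ± 3.59, a size that a group with 0 reads leaves without an upper limit. Over 21 alternatives it ran from 1.36e-06 to 1, with 3 under 0.05. In this comparison 0 of the 8 tested genes of the set were called, and of all genes 0.00748% were. Eomes was the 1 gene of these 8 whose neuron libraries all lay above all astrocyte libraries, against 9.38% of all genes tested, and 0 lay wholly below, against 4.15%.

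In Eed-MADM mice the log2 difference for Eomes was 0.11 ± 1.58 (SE; adjusted p 0.999), and 8.89 without Eed−/− astrocyte 5. There 0 of the 8 tested genes were called, with 0.0598% of all genes called, each of them lower in neurons. 0 of the 8 lay wholly above, against 11.4% of all genes, and 0 wholly below, against 0.314%. Averaged over both genotypes, Eomes differed by 4.28 ± 1.21 (adjusted p 0.248), and 8.69 with an adjusted p of 0.0017 without that 1 library. DESeq2 on all libraries gave an adjusted p of 0.0065 at a log2 difference of 11.8 ± 2.35, which averages in its unlimited control-MADM value. This fit and the one without that library were 2 of 21 alternatives under 0.05, in a range of 0.0017 to 0.953. None of the 8 genes separated the gates over both genotypes, where 0.449% of all genes lay wholly above and 0.0224% wholly below. The genotype by cell type interaction was −8.34 ± 2.60 (adjusted p 0.49). In the 10 astrocyte libraries the 204 reads of Eed−/− replicate 5 were the only Eomes reads. Eed−/− neurons and Eed+/+ neurons differed by 0.30 ± 0.92 (adjusted p 0.917), a value that turned to −0.72 without Eed−/− neuron 3 and to −0.11 without Eed+/+ neuron 2.

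Insm1 (ENSMUSG00000068154.5; chromosome 2, 146221921 to 146225020, plus strand), a zinc finger factor of neurogenic progenitors, was in all 5 neuron libraries and in 5 of 10 astrocyte libraries. Its level was 67.0 and 3.18 CPM in Eed+/+ neurons, the lower value resting on 1 read, and 30.7, 71.3 and 149 CPM in Eed−/− neurons. In Eed+/+ astrocytes it was 46.4, 3.00, 0, 39.0 and 20.2 CPM for replicates 1 to 5, with replicates 1, 4 and 5 inside the range of the neurons and the others below it. In Eed−/− astrocytes 4 libraries had no read and replicate 5 had 92.7 CPM, inside the neuron range. The neuron minus astrocyte difference over both genotypes was 1.42 ± 1.13 on the log2 scale (adjusted p 1), ranging from −0.31 without Eed+/+ neuron 1 to 5.24 without Eed−/− astrocyte 5.

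Of the proneural factors, Neurog1 (ENSMUSG00000048904.5; chromosome 13, 56250478 to 56252163, minus strand) was nearly absent. It had 33 reads in Eed+/+ astrocyte 5 (22.9 CPM), 4 reads in Eed+/+ neuron 1 (2.16 CPM) and none in the other 13 libraries. It passed the low-count filter of none of the comparisons. Over the groups it was at least 4.37-fold lower in Eed−/− than in Eed+/+ astrocytes, a value that rests on the 33 reads of 1 library.

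Neurog2 (ENSMUSG00000027967.8; chromosome 3, 127633135 to 127635631, plus strand) was present in all 5 neuron libraries, at 24.3 and 6.37 CPM in Eed+/+ and at 59.9, 33.6 and 34.9 CPM in Eed−/− cells. The lowest of these rests on 2 reads. In Eed+/+ astrocytes it was at 2.11, 0, 0, 10.7 and 0 CPM. In Eed−/− astrocytes replicate 1 held 455 reads, 788 CPM, and the other 4 held none. Astrocyte 1 is a poorly aligned library that detected 4462 genes and had 0 reads of each of the other 8 genes of the set. The neuron minus astrocyte difference over both genotypes was 0.31 ± 1.04 on the log2 scale (adjusted p 1), −0.11 with RLE scaling and 5.64 without that library (adjusted p 0.224). Within the alignment limits it was 6.07 ± 1.63 (adjusted p 0.5).

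Of the neuronal differentiation factors, Neurod1 (ENSMUSG00000034701.9; chromosome 2, 79452521 to 79456751, minus strand), which acts early in differentiation, was in every neuron library, at 10.3 and 6.37 CPM in Eed+/+ and at 11.0, 113 and 37.5 CPM in Eed−/− cells. Its exons overlap those of Cerkl and Gm26755, so it loses the reads of the shared parts as ambiguous. It was in 4 of 10 astrocyte libraries, at 4.17 and 40.3 CPM in Eed+/+ replicates 4 and 5 and at 2.67 and 15.3 CPM in Eed−/− replicates 2 and 5. The gates overlapped, and the difference over both genotypes was 1.83 ± 1.24 on the log2 scale (adjusted p 1). With 1 library left out it ran from 1.26 (Eed−/− neuron 2) to 3.26 (Eed+/+ astrocyte 5).

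Neurod2 (ENSMUSG00000038255.6; chromosome 11, 98325415 to 98329648, minus strand) had reads in 7 of 10 astrocyte libraries. Its level in Eed+/+ astrocytes was 2.64, 0, 446, 102 and 98.7 CPM for replicates 1 to 5. In Eed−/− astrocytes it was 0, 0, 11.97, 151 and 59.1 CPM. The neurons lay at 10.8 and 12.7 CPM in Eed+/+ and at 35.5, 103 and 143 CPM in Eed−/− cells. Both Eed+/+ neuron libraries were therefore below 3 Eed+/+ astrocyte libraries, the highest of which, the library labelled replicate 3, had fewer astrocyte markers than any neuron library and 2 Eed reads.

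Neurod6 (ENSMUSG00000037984.9; chromosome 6, 55677822 to 55681263, minus strand), a factor of excitatory neurons, was at 2.11, 0, 269, 47.8 and 39.6 CPM in Eed+/+ and at 0, 0, 11.97, 0 and 87.6 CPM in Eed−/− astrocytes. In neurons it was at 16.2 and 0 CPM in Eed+/+ and at 70.9, 144 and 152 CPM in Eed−/− cells. Across the 15 libraries the log2 CPM of Neurod2 and Neurod6 had a Pearson correlation of 0.76. Over both genotypes the neuron minus astrocyte difference was −1.18 ± 1.15 for Neurod2 and −0.21 ± 1.12 for Neurod6 (log2, SE; adjusted p 1 for both).

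Among astrocyte libraries, high Neurod2 followed the run of library numbers. In the 5 astrocyte libraries of the first run Neurod2 had 0 to 5 reads, and in the 5 of the second run 47 to 237. The runs did not overlap for this gene, from 0 to 11.97 CPM against 59.1 to 446 CPM, and of all genes tested 0.201% lay wholly above in the second run and 0.201% wholly below. The difference, with genotype as a covariate, was 6.29 ± 1.97 on the log2 scale, with an unadjusted p of 0.00145 and an adjusted p of 0.771 (edgeR). For Neurod6 it was 5.23 ± 2.16 and for Tubb3 3.50 ± 1.29 (adjusted p 1 for both), and their values overlapped because Eed−/− astrocyte 4 had 0 Neurod6 reads and 4 Tubb3 reads. This comparison was chosen after the values were seen. It called 0 of 11945 genes, with 226 at an unadjusted p under 0.05 and 49 called by DESeq2. The Tubb3 difference was 1.24 without Eed−/− astrocyte 5.

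**Figure D2:**
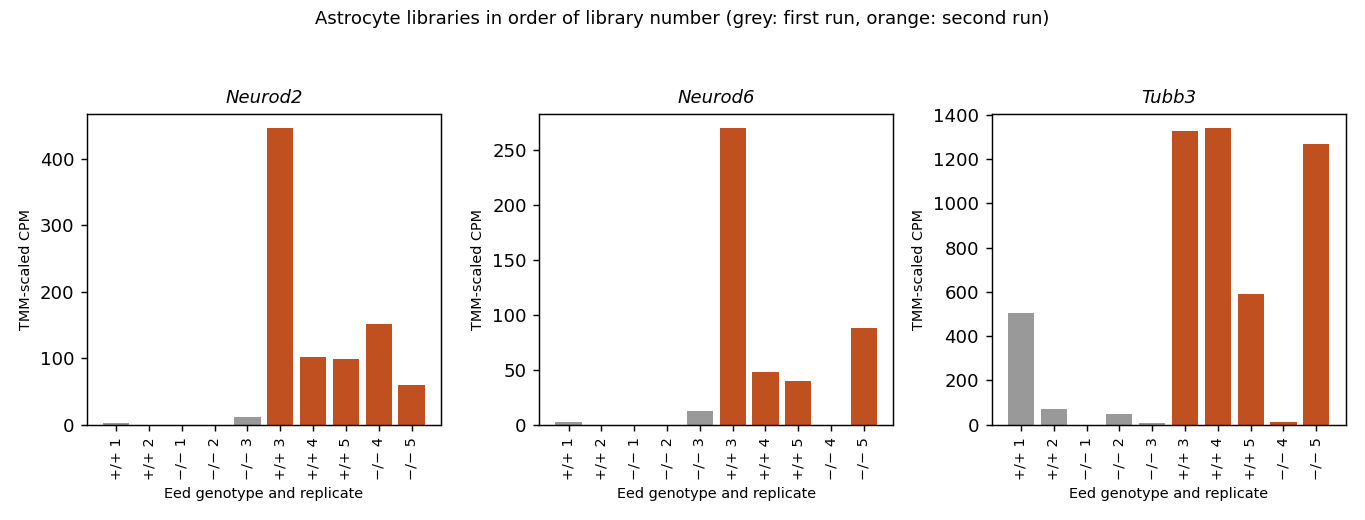
TMM-scaled CPM of Neurod2, Neurod6 and Tubb3 in the 10 astrocyte libraries, 1 bar per library, ordered by library number, with Eed genotype and replicate under each bar. Neurod2 lay at or below 11.97 CPM in the 5 libraries of the first run (grey) and at or above 59.1 CPM in the 5 of the second (orange).

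Beside this shift, neuron markers as a list summed to 381 to 1715 CPM in the first and 453 to 1963 in the second run, and 11 of 13 tested ones had a positive log2 difference. Astrocyte markers summed to 5412 to 71972 and to 9198 to 48200 CPM, and 0 of 15 had a positive difference. Microglia markers reached 8735 CPM in the first and 92.3 in the second run, with 0 of 7 differences positive and a median of −7.05, and interneuron markers had 5 of 5 positive with a median of 1.45. None of them was called, and the part of other cells in the shift was not tested. Cell type and run were also tied, since the second run held no neuron library. Within the first run alone, the neuron minus astrocyte difference was 3.93 ± 1.47 for Neurod2, 4.09 ± 1.52 for Neurod6 (adjusted p 0.217 for both), 5.94 ± 1.50 for Neurod1, 5.17 ± 1.65 for Insm1 and 8.74 ± 1.80 for Eomes (adjusted p 0.178 for each of these 3). It was 2.90 ± 0.97 for Tubb3, 1.60 ± 1.08 for Dcx and 0.61 ± 1.36 for Neurog2 (adjusted p 0.184, 0.63 and 0.961). The signs of Neurod2 and Neurod6 were thus positive without the second run. Neurod6 was also positive within the alignment limits (0.57) and when any of 3 single libraries was left out (up to 1.26, without Eed−/− astrocyte 5), and 0 of the 8 tested genes of the set passed 0.05 with all libraries (0.015% of all genes did) or in the first run, where 0 genes were called in all.

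**Figure D3:**
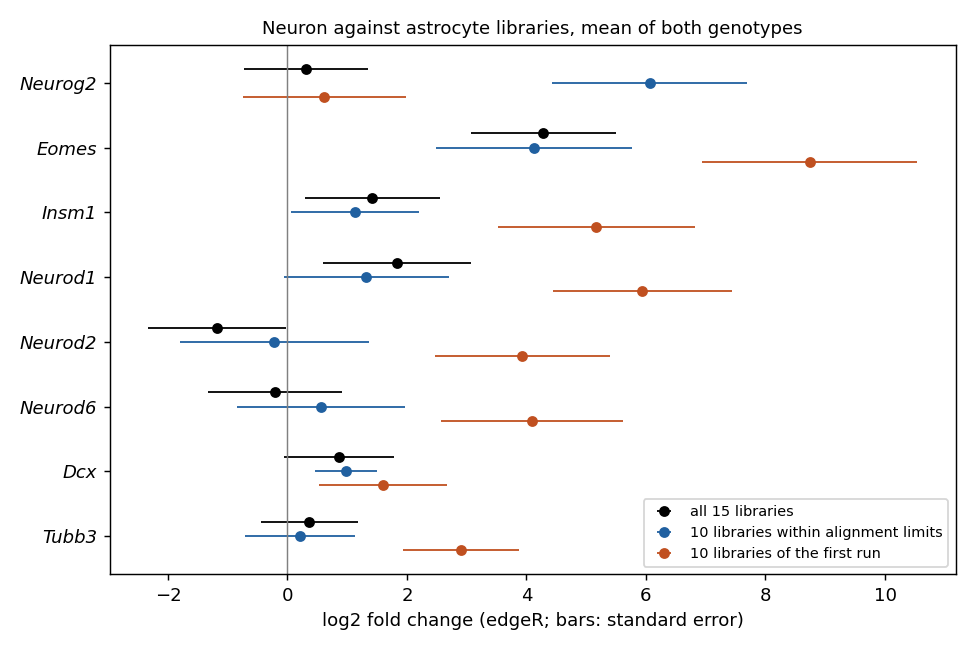
Log2 fold change (edgeR, bars are standard errors) of neuron against astrocyte libraries, averaged over both Eed genotypes, for the 8 tested genes with all 15 libraries, with the 10 within the alignment limits and with the 10 of the first run. With all libraries Neurod2 lay at −1.18 and Neurod6 at −0.21, and in the first run both were near 4 (3.93 and 4.09).

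The cytoskeletal genes were broadly present. Dcx (ENSMUSG00000031285.14; chromosome X, 143855842 to 143933311, minus strand), a microtubule-associated protein of migrating neurons, was at 366 and 150 CPM in Eed+/+ and at 129, 208 and 480 CPM in Eed−/− neurons. In Eed+/+ astrocytes it was at 105, 39.8, 343, 137 and 216 CPM, and in Eed−/− astrocytes at 0, 101, 198, 0 and 336 CPM. Of the 10 astrocyte libraries 8 had Dcx reads, and 5 of them lay within the neuron range. The difference between the gates was 0.86 ± 0.92 (log2, adjusted p 1), from 0.46 without Eed+/+ neuron 1 to 1.24 without Eed−/− astrocyte 5.

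Tubb3 (ENSMUSG00000062380.4; chromosome 8, 123411424 to 123422015, plus strand), the neuronal β-tubulin, had the highest mean of the set per length in each group. It was at 547 and 178 CPM in Eed+/+ and at 745, 1344 and 744 CPM in Eed−/− neurons. Eed+/+ astrocytes held 505, 68.6, 1328, 1339 and 592 CPM, a span that covers the Eed+/+ neurons. Eed−/− astrocytes held 0, 48.7, 8.98 and 12.9 CPM in replicates 1 to 4 and 1267 in replicate 5. The Eed-MADM contrast between the gates was 1.81 ± 1.07 (log2, adjusted p 0.888), and 5.68 with an adjusted p of 0.0291 without Eed−/− astrocyte 5. It was under 0.05 in 2 of 21 alternatives and reached 1.

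Per kilobase of annotated exon, Tubb3 averaged 506 ± 185 CPM (SD, n = 3) in Eed−/− neurons and 194 ± 139 (SD, n = 2) in Eed+/+ neurons. In Eed−/− neurons Neurod6 came next at 56.9 ± 20.8 CPM per kb, then Neurod2 at 29.9 ± 17.3, Insm1 at 27.0 ± 19.4, Dcx at 21.5 ± 14.6, Neurod1 at 19.7 ± 19.3, Neurog2 at 19.2 ± 6.65 and Eomes at 10.9 ± 10.4. From Neurod2 to Eomes neighbours in this order differed by less than the larger of their SDs. For Eomes and Neurod1 the length includes exon parts shared with other genes, whose reads were not counted, so their values can be too low. In Eed+/+ neurons the order below Tubb3 was Dcx at 20.4 ± 12.1, Insm1 at 11.3 ± 14.6, Eomes at 8.08 ± 4.93 and Neurog2 at 6.89 ± 5.70, with the 3 Neurod genes between 3.05 and 3.77 CPM per kb and Neurog1 at 0.641 ± 0.906. In Eed+/+ astrocytes Tubb3 was at 410 ± 297 CPM per kb, followed by Neurod2 at 41.4 ± 58.5 and Neurod6 at 33.4 ± 52.3, both with an SD above their mean. In Eed−/− astrocytes the Tubb3 mean of 143 CPM per kb rested on replicate 5 (678), and in replicates 1, 3 and 4 another gene of the set was higher per kb, namely Neurog2, Dcx and Neurod2.

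Loss of Eed was then compared within each gate. In neurons the 3 Neurod genes and Tubb3 were higher in every Eed−/− library than in either Eed+/+ library. Neurod6 differed by 3.51 ± 0.95, Neurod2 by 2.93 ± 0.87, Neurod1 by 2.54 ± 1.06 and Tubb3 by 1.31 ± 0.75 on the log2 scale. Their adjusted p-values (edgeR) were 0.644, 0.644, 0.67 and 0.737, so none passed. Without Eed−/− neuron 2, which held 218 of the 291 Neurod1 reads of its group, Neurod1 differed by 1.37. Neurod6 was at 2.89 without Eed+/+ neuron 2 and at 10.3 without Eed+/+ neuron 1, and Tubb3 at 0.77 and 2.29, each with 1 control library left. For Neurod1 the nearest libraries were 11.0 and 10.3 CPM, so the separation there was small. Neurog2, the fifth gene without overlap, differed by 1.26 ± 0.83 (adjusted p 0.751). Among the 8 tested genes 5 did not overlap in this direction, whereas 15.6% of all tested genes did. None of the 8 lay wholly below, against 7.81% of all genes.

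The test called 0 of 11862 genes (0%), of which 862 had an unadjusted p under 0.05. Over the summed reads of each group, the ratio of Eed−/− to Eed+/+ was 8.75 for Neurod6, 8.46 for Neurod2, 5.98 for Neurod1 and 1.91 for Tubb3, against 0.787 for Dcx. With library sizes TMM-scaled, unlike in the ratios above, Neurod1 had a ratio of 2.65 without Eed−/− neuron 2. Without Eed+/+ neuron 1 the ratio on that scale was 5.54 for Tubb3 and 1.85 for Dcx. Eed+/+ neurons held 24 Neurod2, 30 Neurod6 and 21 Neurod1 reads in all. DESeq2, which called 56 genes, gave Neurod6 an adjusted p of 0.0222, and edgeR without the low-count filter, which called 127, gave 0.0279. Over 10 alternatives its adjusted p ran from 0.00447 to 0.998, with 3 under 0.05. Without Eed+/+ neuron 1, which left the poorly aligned replicate 2 as the lone control, 2601 genes were called. They included Neurod6, Insm1 and Tubb3 (adjusted p 0.00447, 0.0299 and 0.037), but the lone control, with 0 Neurod6 reads and 1 Insm1 read, is there assumed to vary like the Eed−/− libraries. Without that poorly aligned replicate, within the alignment limits, the differences were 2.89 ± 0.79 for Neurod6 and 3.09 ± 0.88 for Neurod2 (adjusted p 0.621 and 0.693), again with 1 control library and the same assumption on its spread.

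Dcx overlapped between the genotypes in neurons and differed by −0.01 ± 0.72 (log2, adjusted p 0.997), or by 0.011 with RLE scaling. Insm1 differed by 1.08 ± 0.94 (adjusted p 0.773), from 0.29 without Eed+/+ neuron 2 to 4.56 without Eed+/+ neuron 1, where Neurog2 ran from 0.77 to 2.60. The neuron marker list had 9 of 14 tested genes with a positive difference and a median of 0.90, beside a median of 0.15 over all genes tested. The astrocyte list had 6 of 15 and a median of −0.20, the interneuron list 1 of 6 and a median of −0.33, and the microglia list 3 of 3 and a median of 2.16. Microglia markers summed to 0 and 25.9 CPM in Eed+/+ and to 12.7 to 120 CPM in Eed−/− neurons. The summed neuron markers were 1971 and 4438 CPM in Eed+/+ and 1426 to 2471 CPM in Eed−/− neurons, and the part of any of these lists in the difference was not tested.

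In astrocytes only Neurod2, Neurod6, Dcx and Tubb3 passed the filter. They differed by −1.42 ± 1.42, −1.84 ± 1.55, −0.38 ± 1.29 and −1.51 ± 1.10 between Eed−/− and Eed+/+ cells, where the median over all 8956 tested genes was −0.54. Without Eed−/− astrocyte 5 Neurod6 was at −4.68, Tubb3 at −5.34 and Dcx at −1.18, and without the library labelled Eed+/+ astrocyte 3 Neurod6 was at −0.081, Neurod2 at 0.17 and Dcx at 0.084. Neurod2 was at −2.86 without Eed−/− astrocyte 4. Every adjusted p was 1, none of the 4 separated the groups (of all genes 0.0112% lay wholly above and 1.71% wholly below), and 0 of 8956 genes were called (0%; 108 at an unadjusted p under 0.05, and 12 called by DESeq2). Within the limits, Neurod6, Dcx and Tubb3 took positive values of 0.97, 0.83 and 0.081. Of the 5 Eed−/− libraries 3 were poorly aligned against 1 of 5 in Eed+/+ cells. Microglia markers summed to 8735 and 3397 CPM in Eed−/− astrocytes 1 and 3, to 0 in the other Eed−/− libraries and to at most 394 in Eed+/+ libraries. Erythroid markers summed to 5857 and 8117 CPM in Eed−/− astrocytes 1 and 4, to at most 62.8 in the others and to at most 5.81 in Eed+/+ libraries. The part of these cells in the differences was not tested. The interaction of genotype with gate was 5.58 ± 2.59 for Neurod6, 4.55 ± 2.41 for Neurod2 and 2.89 ± 1.75 for Tubb3 (adjusted p 1 for each), and 0 of the 8 tested genes passed, with 0.0524% of all genes called. Opposite signs in the 2 gates were therefore not shown to be a difference.

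**Figure D4:**
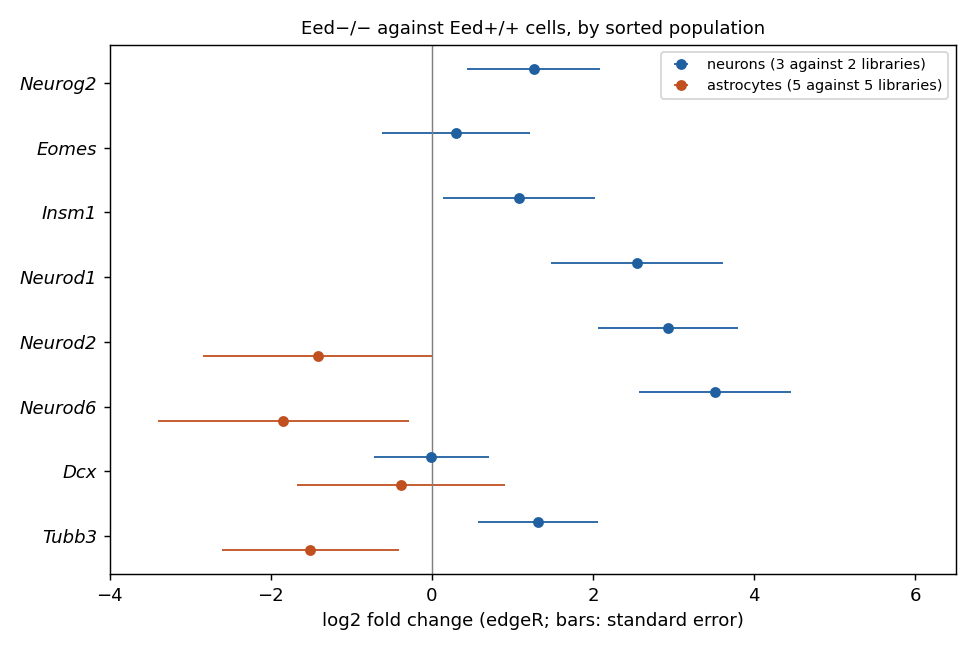
Log2 fold change (edgeR, bars are standard errors) of Eed−/− against Eed+/+ cells in neurons (3 against 2 libraries) and astrocytes (5 against 5) for the genes that passed the low-count filter of each fit. In neurons Neurod6, Neurod2 and Neurod1 lay at 3.51, 2.93 and 2.54, in astrocytes the 4 tested genes lay between −1.84 and −0.38, and none passed an adjusted p of 0.05.

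Other genes of the neurogenic pathway were examined as lists. Of 20 progenitor and proneural genes, all tested, 0 were called between the gates over both genotypes, 18 had a positive neuron minus astrocyte log2 difference and the median was 1.25. Over all genes tested the median was 0.34 and 0.015% were called. Dll1, a Notch ligand of differentiating progenitors that was named after its values were seen, was at 4.02 ± 1.15 (adjusted p 0.248). Dll1 lay between 56.83 and 133.71 CPM in the 5 neuron libraries and between 0 and 63.87 CPM in the astrocyte libraries, of which 6 of 10 had none. The summed level of the list was 1595 to 2165 CPM in neuron and 212 to 1619 CPM in astrocyte libraries.

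The 20 immature neuron cytoskeleton and growth genes did not separate the gates. 0 were called, 13 had a positive difference and the median was 0.19, below that of all genes. Sox11, a transcription factor of young neurons and the list's smallest p, was at 1.85 ± 0.77 (adjusted p 0.687). Between the runs of astrocyte libraries the same list had 18 of 20 positive differences with a median of 1.79, where all genes had −0.12, and 0 were called. Of 13 related bHLH factors and partners 6 were positive between the gates, with a median of −0.06 and 0 called. Of the cell type marker lists, 12 of 15 neuron, 7 of 7 interneuron and 5 of 7 oligodendrocyte genes had a positive difference between the gates (medians 0.75, 1.35 and 0.42). For 3 of 15 astrocyte, 0 of 8 microglia and 0 of 4 erythroid genes it was positive (medians −0.67, −4.27 and −3.77), no endothelial gene passed the filter, and 0 were called in each. In Eed-MADM mice alone 3 of the 4 erythroid genes were called lower in neurons (median −10.24), 3 of the 8 genes called there, and 2 of 4 were called in the interaction. Their part in the levels of the neurogenic genes was not tested. In Eed−/− against Eed+/+ neurons the medians were 0.74 over 19 progenitor and proneural genes, 0.44 over 20 immature neuron genes and 0.51 over 13 bHLH genes, again with 0 called in each. In astrocytes the same comparison gave −0.01 over 12, −0.52 over 20 and −0.79 over 12 genes with 0 called.

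The genes whose log2 CPM most resembled 3 of the set were sought over the 15 libraries and 8241 genes. For Dcx they were Pik3r1, Tceal9, Paip2b, Knop1 and Ddx50, at a Pearson correlation of 0.98 to 0.96. For Neurod6 they were Rbfox3, Unc5d, Usp29, Igfbpl1 and Clmp, from 0.92 to 0.86, and for Eomes Bmp4, Jade1, Ust, Prr36 and Crabp1, from 0.86 to 0.78. These libraries share their differences in depth and detected genes, so the values are descriptions. Within the set the highest correlations were between Dcx and Tubb3 (0.78), Neurod2 and Neurod6 (0.76), Insm1 and Tubb3 (0.74) and Neurod6 and Tubb3 (0.74), and Neurog2 lay between −0.25 and 0.25 with each of the others.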

How the data were processed

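Green cells of the neocortex at postnatal day 4 were sorted by the authors, turned into Smart-Seq v2 libraries and sequenced. The authors aligned reads with STAR to mm10 (GRCm38) and deposited raw read counts per gene, neither normalized nor pooled. The release of the annotation they counted on was not stated, and use of uniquely aligned reads alone is stated for other libraries of the study. Each library's table opened with 4 lines of totals that name no gene, which stayed out of library sizes. Reads outside genes made up 8.55% to 71.6% of the uniquely aligned reads. The unstranded counts were used, since 46.7% to 52.7% of stranded reads fell on the first strand. Symbols, coordinates and exon lengths came from GENCODE M21 on GRCm38, which matched 53274 identifiers and left 105 unmatched. The labels of 1 of 16 libraries name both cell types, and it entered no comparison. The tables held 0 columns without a sample. The study set libraries of this series aside without naming them in the sources used here, so all 15 were kept.

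The test was the robust quasi-likelihood F-test of edgeR 4.0.16 (in R 4.3.3, after TMM scaling and filterByExpr), two-sided, with Benjamini-Hochberg adjustment over all genes tested and a threshold of 0.05. Cell type contrasts and the interaction used 1 fit of 4 groups over 15 libraries, and Eed−/− was compared with Eed+/+ within each gate. The SE of a log2 fold change is its size divided by the square root of F. Alternatives were RLE size factors, DESeq2 1.42.0, no low-count filter, libraries within the limits, the first run of library numbers, a replicate block and leaving out each library. The comparison of runs and the second run alone were added after the data were seen. The fits were tested on simulated data. The genes of the set, the pathway lists and the cell type markers were chosen with earlier results of these data known. Named genes were all 9 of the set, Eed, list genes past the threshold (of which there were 0 in the 3 pathway lists) and for Dcx, Neurod6 and Eomes the 5 genes with the highest correlation of log2 CPM (prior count 2) among genes with a mean of at least 20 CPM. Dll1, Sox11, Npm1 and Lrrn3 fall outside this rule and were named after their values were seen. The genes used to check the labels come from the marker lists. RefSeq promoters end at the RefSeq start, which can differ from the GENCODE start.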

Additional observations from a re-analysis of the deposited data

Results flagged for a closer look

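In astrocyte libraries, 11 of 18 sets of values (9 genes in 2 groups of 5 libraries) held 1 library whose gap to its nearest neighbour was above Dixon's critical value. Chance alone gives this in about 1 in 20 sets of normally distributed values, which these low counts with many zeros are not, so the number of sets is a description. Eed−/− astrocyte 5 was that library for 5 genes, with Eomes at 208 CPM, Insm1 at 92.7, Neurod1 at 15.3, Neurod6 at 87.6 and Tubb3 at 1267. Eed−/− astrocyte 1 was it for Neurog2 at 788 CPM. In Eed+/+ astrocytes it was replicate 5 for Neurog1 at 22.9 CPM and Neurod1 at 40.3, replicate 4 for Neurog2 at 10.7, and the library labelled replicate 3 for Neurod2 at 446 and Neurod6 at 269. Where the other libraries were all at 0, as for Eomes, Insm1 and Neurog2 in Eed−/− and Neurog1 in Eed+/+ cells, any reads in 1 library pass that value. In 2 of the 18 sets, Eomes in Eed+/+ and Neurog1 in Eed−/− astrocytes, every library was at 0 and there was nothing to test. The groups of 2 and 3 neuron libraries were too small for this test. In Eed−/− astrocyte 5 the neuron markers summed to 1963 CPM and the progenitor and proneural genes to 1619 CPM, each the highest of all astrocyte libraries. Its astrocyte markers summed to 27055 CPM, and the part of other cells in its values was not tested.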

How the results depend on the processing

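As reported, 0 genes of the set were called in any comparison. The cause of the changes below was not tested. Depth limits what a count of 0 can show, which allowed up to 9.64 CPM in Eed−/− astrocyte 4.

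Genes called between the gates over both genotypes, in control-MADM and in Eed-MADM (2, 1 and 8) were 0, 0 and 0 in the first run, the same within the limits, and 0, 2 and 3 without a filter. DESeq2 gave 5 and 10 for the first 2, RLE 6 for the second. Between genotypes in astrocytes (0) they were 12 with DESeq2, 5 without a filter and 4 in the first run, and in neurons (0) 56, 127 without a filter and 1 within the limits. For the interaction (7) they were 3 with DESeq2, 21 with RLE, 2 without a filter and 0 in the first run or within the limits, and between runs (0) 49 with DESeq2 and 6 with RLE. DESeq2 called 1 gene of the set in each of 5 comparisons: Eomes between the gates (both genotypes, control-MADM), in the interaction and between runs, and Neurod6 in neurons. RLE called 1, Eomes in control-MADM, and no filter 1, Neurod6 in neurons.

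Signs turned for genes that passed in neither setting. Between the gates over both genotypes, Neurog2 was −0.060 with DESeq2 and −0.11 with RLE, Neurod2 was 3.93 and Neurod6 4.09 in the first run, and Neurod6 0.57 within the limits. In control-MADM, Neurod1 was 0.13 with DESeq2 and with RLE, 6.55 in the first run and 0.0037 within the limits, and in the first run Neurod2 was 3.06, Neurod6 2.99 and Tubb3 0.29. In Eed-MADM within the limits Eomes was −1.18 and Neurog2 9.20. In astrocytes Dcx was 0.47 in the first run, and within the limits Neurod6 was 0.97, Dcx 0.83 and Tubb3 0.081. In neurons Dcx was 0.036 with DESeq2, 0.040 without a filter and 0.011 with RLE, and Eomes −0.11 within the limits. Between runs Neurog2 was 2.08 within the limits.

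Only same-numbered astrocyte and neuron libraries of 1 genotype could share an animal. Their deviations from the group means correlated at −0.0096 and −0.049 in Eed+/+ and at 0.014, 0.13 and −0.0048 in Eed−/− cells. The 2 Eed+/+ neuron libraries deviate as mirror images from their mean, so this check cannot exclude pairing. No label gives a pairing, and the numbers were not taken to pair libraries. With the replicate block, 0, 0 and 5 genes were called between the gates, 2 in the interaction, and 1 gene of the set, Tubb3 in Eed-MADM (6.67, adjusted p 0.0419). Under the block Neurod2 was 4.99 and Neurod6 4.66 over both genotypes, Neurod1 6.39, Neurod2 3.76, Neurod6 2.60 and Tubb3 0.74 in control-MADM, Neurog2 3.95 in Eed-MADM, and Eomes −0.96 in neurons. Of 12 same-numbered pairs, which also joined libraries of different genotypes (correlations from −0.26 to 0.17 in all), 2 correlated best with their own number.

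When each library was left out in turn, genes called ranged from 0 to 5 (both genotypes, and control-MADM), 0 to 26 (Eed-MADM), 0 to 1 (astrocytes, and runs), 0 to 2601 (neurons) and 1 to 12 (interaction). Genes of the set called ranged from 0 to 1 in each gate contrast and from 0 to 3 in neurons, and stayed at 0 elsewhere. Values with a sign that turned ranged, over both genotypes, from −0.34 to 5.64 for Neurog2, −0.31 to 5.24 for Insm1, −0.15 to 2.30 for Tubb3 and −3.43 to 1.26 for Neurod6. In control-MADM they ranged from −0.51 to 2.79 for Neurod1, −2.77 to 1.62 for Insm1 and −0.19 to 1.14 for Dcx, and in Eed-MADM from −0.95 to 8.89 for Eomes and −2.21 to 8.83 for Neurog2. In astrocytes they ranged from −2.86 to 0.17 for Neurod2 and −1.18 to 0.084 for Dcx, in neurons from −0.72 to 1.12 for Eomes and −0.67 to 0.74 for Dcx, and between runs from −7.55 to 0.20 for Neurog2 and −0.30 to 5.20 for Insm1. The neuron comparison had no second setting for the runs, since all neuron libraries were in the first.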

Other observations

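The library whose labels name both cell types (Eed−/− cells, 221456 reads in genes, 17.7% unique alignment) had 1 Tubb3 read and 0 reads of the other 8 genes of the set. Its 15 astrocyte markers summed to 11473 reads, with 11 detected, and its 15 neuron markers to 366 reads, with 4 detected.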
